A study of Mus musculus with 2 samples.

Results

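The keratin family was examined on 2 Affymetrix arrays of mouse stomach, as every gene whose symbol in the authors' workbook is Krt followed by a number and at most 1 letter. The rule took 52 genes out of 30943 genes with a symbol, measured by 53 of 41345 probe sets. It leaves out the hair keratin-associated proteins (Krtap), which are not filament proteins. Both mice were 12 weeks old, of mixed background backcrossed to C57/B6, and both carried Atp4bCre, in which Cre recombinase is driven by the promoter of the proton pump beta subunit of parietal cells. The MIST1-LSL mouse also had the MIST1-LSL allele, from which the secretory-cell transcription factor MIST1 is made once Cre has cut out a stop sequence. The Control mouse had Atp4bCre alone. The question of the design is how the stomach's transcripts differ after parietal cells are made to express MIST1. Each genotype is 1 stomach and 1 array, so no difference here has a replicate check, no p-value was computed, and the number of arrays limits the precision.

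Keratins are the intermediate filament proteins of epithelial cells. A filament is built from pairs of 1 type I (acidic) and 1 type II (basic) keratin, and which pair a cell makes depends on its epithelium. Simple, single-layered epithelium such as the gastric glands makes Krt8 with Krt18, Krt19 or Krt20. Stratified epithelium such as the squamous lining of the mouse forestomach makes Krt5 with Krt14 in its basal layer, and other pairs in the layers above. In bulk tissue, fewer cells of a type and less RNA per cell cannot be told apart.

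The label of a forestomach and a gland compartment was checked against markers of each. Squamous envelope genes were measured on both arrays, with the small proline-rich protein gene Sprr1a at 11.85 in MIST1-LSL and 11.94 in Control (log2 level from RMA, which corrects background, equalises the distributions of the arrays and summarises the probes of a probe set), and Krtdap, a secreted protein of differentiating keratinocytes, at 12.22 on both arrays. Krtdap and Sprr1a were the brightest of 13 envelope genes, and the lowest, Ivl, read 4.90 in MIST1-LSL and 5.28 in Control. Gland genes were measured as well, with the proton pump gene Atp4b at 12.11 in MIST1-LSL and 12.13 in Control. The sample labels name the corpus while the design text speaks of whole stomachs, and the forestomach lies outside the corpus. The free-text description of the MIST1-LSL sample also holds the word control, and its group was taken from the genotype label. Bhlha15, which encodes MIST1, read 5.30 in MIST1-LSL and 5.26 in Control. This difference of 0.04 is smaller than that between probe sets of 1 gene (SD 0.21), so no rise of MIST1 was seen on the array labelled MIST1-LSL and the value does not check that label. The part of the transcript that its probes cover is not given.

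Promoter windows are shown for 2 pairs of keratins around which the results turn: Krt20, which was lower in MIST1-LSL, beside its type II partner Krt8, which was not, and the basal partners Krt5 and Krt14. Each window holds 300 bases, from 250 before to 50 after the gene start, from RefSeq (GRCm38.p6), written 5′ to 3′ along the gene, with matches to TATAAA on either strand in capitals. Krt20 is at chr11:99438104-99438403, Krt8 at chr15:102004293-102004592, Krt5 at chr15:101712856-101713155 and Krt14 at chr11:100205981-100206280, all on the minus strand.
Krt20: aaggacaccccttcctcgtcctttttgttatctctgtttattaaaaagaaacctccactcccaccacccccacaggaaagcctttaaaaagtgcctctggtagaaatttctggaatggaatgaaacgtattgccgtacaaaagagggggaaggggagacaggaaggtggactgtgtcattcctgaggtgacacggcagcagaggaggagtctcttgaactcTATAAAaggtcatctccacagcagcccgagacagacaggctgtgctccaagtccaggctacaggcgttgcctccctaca
Krt8: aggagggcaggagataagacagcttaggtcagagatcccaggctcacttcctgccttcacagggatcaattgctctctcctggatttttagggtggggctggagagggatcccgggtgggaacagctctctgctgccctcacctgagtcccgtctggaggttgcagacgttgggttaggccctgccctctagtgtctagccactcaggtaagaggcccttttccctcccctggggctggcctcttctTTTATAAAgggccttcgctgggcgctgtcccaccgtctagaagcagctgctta
Krt5: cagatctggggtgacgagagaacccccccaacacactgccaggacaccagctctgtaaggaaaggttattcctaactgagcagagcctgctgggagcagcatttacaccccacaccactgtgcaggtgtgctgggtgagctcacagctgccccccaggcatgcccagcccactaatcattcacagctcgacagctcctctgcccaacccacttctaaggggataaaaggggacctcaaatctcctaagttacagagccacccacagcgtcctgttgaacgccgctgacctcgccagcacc
Krt14: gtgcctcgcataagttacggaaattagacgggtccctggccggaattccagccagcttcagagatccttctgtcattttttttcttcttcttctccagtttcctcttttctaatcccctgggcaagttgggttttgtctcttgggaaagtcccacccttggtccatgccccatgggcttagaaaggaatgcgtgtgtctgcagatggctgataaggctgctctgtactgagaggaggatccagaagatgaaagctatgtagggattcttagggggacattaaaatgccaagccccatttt

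In Krt20 the TATAAA match began 29 bases before the annotated start. In Krt8 a match on each strand overlapped at the annotated start itself, and neither Krt5 nor Krt14 had these letters in the window. Of 36 windows for 35 keratins, 19 held TATAAA (52.8%), against 4473 of 32851 windows of all genes (13.6%). The GC-rich letters GGGCGG were in 2 of the 36 keratin windows (5.56%), against 35.7% of all windows. TGANTCA was in 2 keratin windows (5.56%), against 7.81%, and both are windows of the same gene, Krt13. All 3 motifs were searched on both strands and do not overlap one another. Krt15, Krt16, Krt17 and Krt6a had no window in the table. These matches describe letters and are not measurements of binding.

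Of the 52 keratins, 35 had a level of at least 4.62 on 1 or both arrays. That floor is the median of all probe-set values and stands in for a call of presence, which was not available. On both arrays 32 of them reached it, while Krt36 and Krt77 did so only in MIST1-LSL and Krt39 only in Control. None of the 35 differed 2-fold, where 1.44% of 17353 genes above the floor did (0.968% higher and 0.473% lower in MIST1-LSL). At 1.5-fold, 2 keratins were higher in MIST1-LSL (Krt15 and Krt16), beside 3.49% of genes, and 1 was lower (Krt20), beside 3.31%. The keratins above the floor had a median log2 difference, MIST1-LSL minus Control throughout, of 0.12, and all genes above it had -0.03. By any amount, 24 of the 35 were higher in MIST1-LSL, where 44.9% of genes were. Without a floor, 33 of 52 were higher, with a median of 0.07, against 45.9% of all 30943 genes. Probe sets of the same gene differed with an SD of 0.21 over 483 genes, which reflects probe behaviour and not variation between mice. A smaller difference than that was found for 18 of the 35 keratins and for 53.3% of genes.

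**Figure D1:**
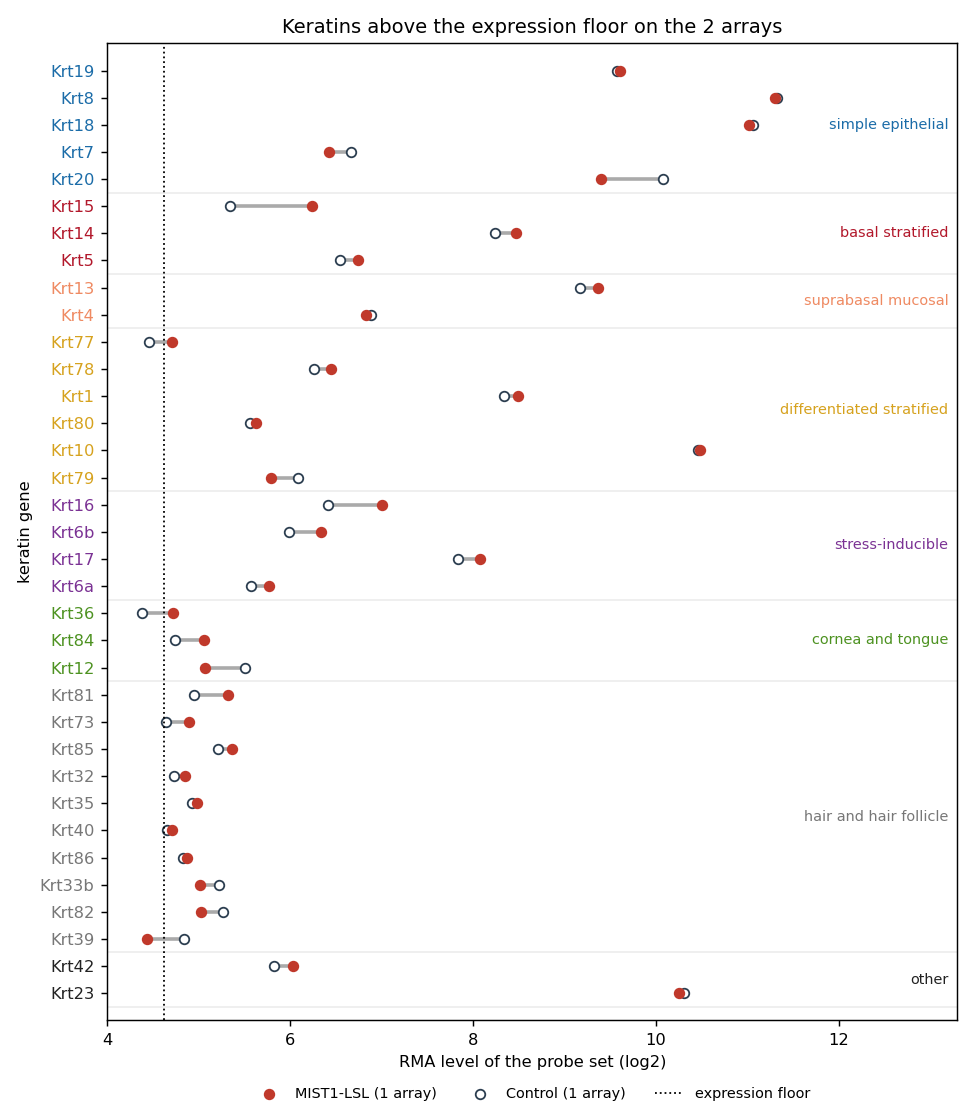
RMA level (log2, x axis) of the 35 keratins above the floor on the MIST1-LSL array (filled points) and the Control array (open points), grouped by role, with a dotted line at the floor of 4.62. The paired points lie close together for Krt8, Krt18, Krt19 and Krt10 and farthest apart for Krt15 (6.24 in MIST1-LSL, 5.34 in Control) and Krt20 (9.40 in MIST1-LSL, 10.08 in Control).

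Among the simple epithelial keratins, those with the widest use in glands had nearly equal levels on the 2 arrays, and Krt20 was lower in MIST1-LSL. Krt8, the type II keratin of simple epithelium, read 11.30 in MIST1-LSL and 11.33 in Control, a difference of -0.03 whose sign turned with median centring (0.01) and loess (0.001). Krt18, its usual type I partner, read 11.02 in MIST1-LSL and 11.06 in Control, a difference of -0.04. Krt19, a type I keratin of ducts, progenitors and surface epithelium, read 9.61 in MIST1-LSL and 9.58 in Control, a difference of 0.02. These 3 differences are smaller than the SD between probe sets. Krt7, a type II keratin of ducts and mesothelium, read 6.42 in MIST1-LSL and 6.67 in Control, a difference of -0.25. Krt20, a type I keratin of mature surface cells in the stomach and of intestinal epithelium, read 9.40 in MIST1-LSL and 10.08 in Control, a difference of -0.68 or 0.625 times the Control intensity. Of genes above the floor, 2.02% lay as far below Control or further. Of genes with a mean level between 8 and 10, the middle 95% lay between -0.55 and 0.64, and Krt20 was outside. Over all levels the middle 95% of genes lay between -0.63 and 0.68, with 2 of the 35 keratins, Krt15 and Krt20, outside. Such a band leaves out a share of all genes by construction, so this count does not set the family apart. Krt8 and Krt20 can form filaments together, and the Krt20 difference minus the Krt8 difference was -0.65.

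Markers of cells that could carry Krt20 and Krt7, and of other gland cells, differed as follows. Of all 17353 genes above the floor, 9222 were lower in MIST1-LSL. Of 11 gland epithelium genes, 10 were lower in MIST1-LSL, with a median of -0.19 and none at 2-fold, and the count was 8 after median centring. This list also holds genes of other gland cells, among them neck and parietal cells, and of epithelium at large. Its count and median therefore do not describe surface cells alone. The surface mucin Muc5ac differed by -0.74 (11.30 in MIST1-LSL, 12.04 in Control), the neck cell mucin Muc6 by -0.64, the adherens junction cadherin Cdh1 by -0.31 and the intrinsic factor gene Gif by -0.22. The other surface cell genes on that list, Gkn1 and Tff1, differed by -0.03 and -0.04. The summed linear intensity of the list was 35220 in MIST1-LSL and 39166 in Control. Of 6 intestinal epithelium genes above the floor, 5 were lower, with a median of -0.12. Apoa1, an apolipoprotein, differed by -0.27, the brush border protein Vil1 by -0.24, the transcription factor Cdx1 by -0.14 and its relative Cdx2 by 0.40. The intestinal sum was 2029 in MIST1-LSL and 2233 in Control. The part of either cell type in the Krt20 difference was not tested. All 7 mesothelium genes were lower in MIST1-LSL, with a median of -0.45 and a sum of 425 in MIST1-LSL and 579 in Control. Gpm6a differed by -0.62, Lrrn4 by -0.60, and the uroplakins Upk1b and Upk3b by -0.53 and -0.45. Lrrn4 reached the floor only in Control, so its lower level in MIST1-LSL is partly a matter of selection. Their part in the Krt7 difference was not tested.

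Pancreatic acinar cells make Krt8 and Krt18, and pancreatic ducts make Krt7 and Krt19. All 8 acinar enzyme genes were more than 2-fold higher in MIST1-LSL, beside 0.968% of all genes above the floor that were at least 2-fold higher. These 8 were chosen with earlier results of these data known, so their count is not independent of them. Of the 4 above the floor on both arrays, the lipase gene Cel differed by 3.49 on the log2 scale, the elastase gene Cela2a by 3.80, the carboxypeptidase gene Cpa1 by 4.82 and the chymotrypsinogen gene Ctrb1 by 6.10. The other 4, Amy2b, Cela3b, Pnlip and Prss2, were below the floor in Control, where signal over background was not shown, so the size of their differences is uncertain. Beside them Krt8 and Krt18, which gastric glands also make, differed by -0.03 and -0.04. The part of pancreatic cells in the acinar enzyme and keratin differences was not tested. On the duct list, the secreted protein Spp1 differed by -0.57, the mucin Muc1 by -0.27 and the transcription factor Sox9 by -0.11. The duct channel gene Cftr was below the floor on both arrays, at 3.88 in MIST1-LSL and 3.80 in Control.

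The keratins of stratified epithelium were mostly higher in MIST1-LSL, by small amounts. Over the basal, suprabasal, differentiated and stress-inducible roles, 13 of 15 keratins above the floor were higher, with a median of 0.20. Of all genes above the floor, 44.9% were higher, with a median of -0.03. Krt77 is among the 13 and reached the floor only through MIST1-LSL, so the count is partly a matter of selection. Counting also the 3 below the floor (Krt2, Krt9 and Krt76, all lower), 13 of 18 were higher, against 45.9% of all genes. The 13 were the same number under quantile normalization, median centring and loess. For 8 of these 15 the difference was smaller than the SD between probe sets. Stratified keratins of 1 tissue layer share their cells, so they do not count as separate evidence.

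All 3 basal keratins were higher, and Krt15 stood apart from the pair. Krt5, the type II basal keratin, read 6.75 in MIST1-LSL and 6.54 in Control, a difference of 0.20. Krt14, its type I partner, read 8.47 in MIST1-LSL and 8.24 in Control, a difference of 0.23. The partners were thus 0.03 apart. Krt15, a type I keratin of basal cells that in skin marks stem cells of the hair follicle bulge, read 6.24 in MIST1-LSL and 5.34 in Control, a difference of 0.90, or 1.87-fold. It was 0.70 further up than Krt5. Of genes above the floor, 1.20% lay as far above Control or further. Genes with a mean level up to 6 had a middle 95% between -0.69 and 0.69, with Krt15 outside it. Under the alternative settings Krt15 lay between 0.90 and 0.94.

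The stress-inducible keratins, which keratinocytes switch on in wounding and hyperproliferation and which some linings make at rest, were all higher as well. Krt16, type I, read 7.01 in MIST1-LSL and 6.42 in Control, a difference of 0.59, or 1.51-fold. Krt17, also type I, read 8.08 in MIST1-LSL and 7.83 in Control, a difference of 0.25. Krt6b, a type II partner of both, read 6.34 in MIST1-LSL and 5.99 in Control, a difference of 0.35. Krt6a read 5.77 in MIST1-LSL and 5.57 in Control, a difference of 0.20. Krt16 was within the middle 95% of genes with a mean level from 6 to 8 (-0.56 to 0.61). Krt6a and Krt6b are near-identical copies, and Krt14, Krt16 and Krt17 resemble one another closely. How far their probes separate them is not given, and the values of single copies are uncertain. Krt6a and Krt17 had 9 probes each and Krt6b 10, at the low end of the 9 to 28 probes of the family.

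The keratins of the upper layers above the floor differed in both directions, from -0.29 to 0.25. Krt13, the type I keratin of non-cornified mucosa, read 9.37 in MIST1-LSL and 9.18 in Control, a difference of 0.19, while its partner Krt4 read 6.83 in MIST1-LSL and 6.88 in Control, a difference of -0.05. Krt1 read 8.49 in MIST1-LSL and 8.34 in Control, a difference of 0.15. Its partner in cornifying epithelium, Krt10, read 10.49 in MIST1-LSL and 10.46 in Control, a difference of 0.03. All 4 lie within the SD between probe sets. The type II keratin Krt78 of the suprabasal layers read 6.45 in MIST1-LSL and 6.27 in Control, a difference of 0.18. Krt77, a type II keratin known in human skin from sweat ducts, read 4.71 in MIST1-LSL and 4.46 in Control, a difference of 0.25 near the floor. Krt80, a type II keratin laid down near desmosomes, read 5.63 in MIST1-LSL and 5.56 in Control, a difference of 0.07. Krt79, a type II keratin of the hair canal and sebaceous duct, read 5.80 in MIST1-LSL and 6.08 in Control, and with -0.29 it was the exception among the differentiated keratins above the floor.

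**Figure D2:**
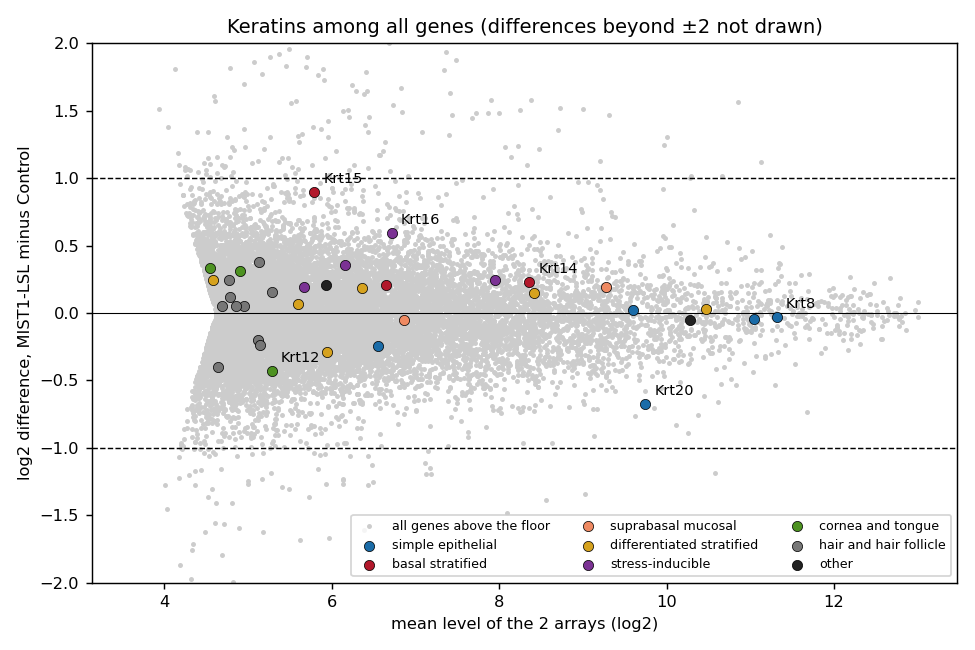
Log2 difference, MIST1-LSL minus Control (y axis), against the mean level of the 2 arrays (x axis) for the 17353 genes above the floor (grey) and the 35 keratins (coloured by role), with dashed lines at 2-fold. No keratin reaches a dashed line, and Krt15 at 0.90 and Krt20 at -0.68 are the keratins farthest from 0.

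The remaining roles stayed close to the floor, apart from Krt23 and Krt42. Krt23, a type I keratin, read 10.26 in MIST1-LSL and 10.31 in Control, a difference of -0.05. Krt42, a type I keratin related to Krt17, read 6.03 in MIST1-LSL and 5.83 in Control, a difference of 0.21. Krt12, the type I keratin of corneal epithelium, read 5.07 in MIST1-LSL and 5.50 in Control, a difference of -0.43. Krt84, a type II keratin of the tongue's filiform papillae and of hair, read 5.06 in MIST1-LSL and 4.74 in Control, a difference of 0.31. Krt36, also of filiform papillae, was the single gene of the family with more than 1 probe set, and these disagreed. The brighter probe set read 4.72 in MIST1-LSL and 4.38 in Control (0.34), and the other read 3.20 in MIST1-LSL and 3.37 in Control (-0.18), below the floor.

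Keratins of hair and its follicle are not made in quantity by the stomach lining, and of 22 such genes 10 reached the floor, with a highest level of 5.37. Of these 10, 7 were higher in MIST1-LSL, with a median of 0.05, where 44.9% of all genes above the floor were higher. For 6 of the 10 the difference was smaller than the SD between probe sets. Krt81, a type II hair cortex keratin, read 5.32 in MIST1-LSL and 4.95 in Control, and its difference of 0.38 was the widest upward. Krt39, a type I hair cuticle keratin, read 4.44 in MIST1-LSL and 4.84 in Control, and its difference of -0.40 was the widest downward. It reached the floor only in Control. Differences were 0.24 for the inner root sheath keratin Krt73, 0.16 for Krt85, 0.12 for Krt32, 0.05 for each of Krt35, Krt40 and Krt86, -0.20 for Krt33b and -0.24 for Krt82. Hair follicle markers outside the family gave little signal: the inner root sheath protein Tchh, the homeobox genes Hoxc13 and Msx2 and the desmoglein Dsg4 were below the floor on both arrays. Of the 3 above it, Lef1 differed by -0.48, Dlx3 by 0.38 and Padi3 by 0.05.

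The 17 keratins below the floor lay between 2.72 and 4.61, with differences from -0.67 to 1.03, and 9 of the 17 were higher in MIST1-LSL. Without a floor, 45.9% of all genes were higher. Krt71, an inner root sheath keratin, read 4.11 in MIST1-LSL and 3.08 in Control. Its 2.05-fold difference is the only one in the family past 2-fold, and signal above background was not shown on either array. Krt222, a keratin-like gene, read 4.27 in MIST1-LSL and 3.75 in Control, a difference of 0.52. Krt24, a type I keratin, read 3.94 in MIST1-LSL and 4.61 in Control, a difference of -0.67 that starts just under the floor.

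Nearly all keratin genes lie in a pair of clusters, and 27 of the 52 were placed on chromosome 11 and 24 on chromosome 15, through RefSeq names of GRCm38.p6 (50 by accession, 1 by symbol, Krt85 unmatched). Type I genes fill the chromosome 11 cluster, and type II genes the chromosome 15 cluster, which ends with type I Krt18 next to Krt8. By type, the 18 type I keratins above the floor had a median difference of 0.05 and the 17 type II keratins had 0.16. Among the measured genes Krt19 directly followed Krt15, and these neighbours differed by 0.02 and 0.90. Likewise Krt20 (-0.68) stood between Krt12 (-0.43) and Krt23 (-0.05). Krt14, Krt16, Krt17 and Krt42, consecutive at the end of the chromosome 11 cluster, differed by 0.23, 0.59, 0.25 and 0.21. Krt6b, Krt6a and Krt5, consecutive on chromosome 15, differed by 0.35, 0.20 and 0.20.

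**Figure D3:**
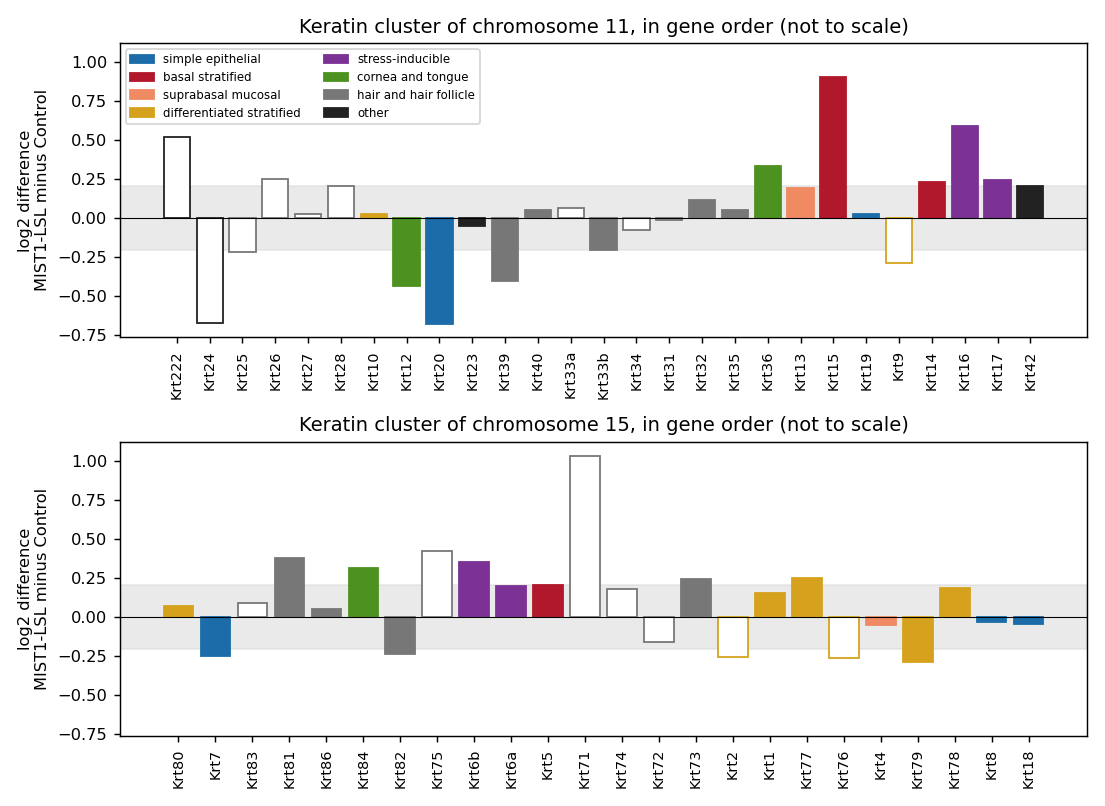
Log2 difference, MIST1-LSL minus Control (y axis), of each keratin in gene order along its cluster (x axis, not to scale), coloured by role, with open bars for genes below the floor and a grey band for the SD of 0.21 between probe sets. Bars from Krt14 to Krt42 all point up, while Krt12, Krt20 and Krt39 point down.

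Keratin filaments are anchored to desmosomes between cells and to hemidesmosomes at the basement membrane. Of all genes above the floor, 44.9% were higher in MIST1-LSL. Of 12 desmosome and plakin genes 7 were higher, with a median of 0.02 and none at 2-fold. The desmosomal cadherins of stratified epithelium read higher: Dsg1a by 0.76 (5.74 in MIST1-LSL, 4.99 in Control), Dsc3 by 0.45 and Dsg3 by 0.22. Dsg1a was measured by 8 probes only. Those that simple epithelium also makes read lower, with Dsg2 at -0.25 and Dsc2 at -0.27. The planned list made no such split. Pkp1 and Ppl differed by 0.11 each, Pkp3 by 0.03, Pkp2 by 0.004 and Evpl by -0.02. Desmoplakin, Dsp, which ties keratin to the desmosome, read 9.65 in MIST1-LSL and 10.21 in Control, a difference of -0.55, and plakoglobin, Jup, differed by -0.27. Of 9 hemidesmosome genes 3 were higher, with a median of -0.22. The laminin chains Lama3 and Lamb3 differed by -0.42 and -0.41, the integrin Itga6 by -0.35 and the linker Plec by 0.31.

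Squamous regulators and envelope genes differed less than Krt15. Their counts stand beside 44.9% of all genes above the floor that were higher in MIST1-LSL. Of 11 regulators above the floor 5 were higher, with a median of -0.02 that turned to 0.02 with median centring and 0.01 with loess. Trp63, the transcription factor of basal squamous cells, read 5.38 in MIST1-LSL and 5.14 in Control, a difference of 0.25. Pax9, a factor of foregut squamous lining, differed by 0.26, Grhl1 by -0.18 and Klf4 by -0.14. Of 13 cornified envelope genes 10 were higher (9 with quantile normalization), with a median of 0.03 and none at 2-fold. For 8 of these 13 the difference was smaller than the SD between probe sets. Sprr2d, measured by 9 probes only, differed by 0.72, cornifelin (Cnfn) by 0.46, loricrin (Lor) by 0.27 and involucrin (Ivl) by -0.39. The summed linear intensity of the envelope list was 11434 in MIST1-LSL and 11190 in Control, beside 3860 in MIST1-LSL and 3503 in Control for the 15 stratified keratins above the floor. How much squamous lining each sample held was not given, and its part in the stratified keratin differences was not tested.

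Smooth muscle genes, from the wall beneath the epithelium, were at least 2-fold higher in MIST1-LSL in 7 of 7 cases. The share over all genes above the floor was 0.968%. This list was chosen with earlier results of these data known, so its count is not independent of them. The 7 (Acta2, Actg2, Cnn1, Des, Myh11, Myl9 and Tagln) had a median of 1.48 and a summed intensity of 3696 in MIST1-LSL and 1441 in Control. The part of tissue make-up in the keratin differences was not tested.

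**Figure D4:**
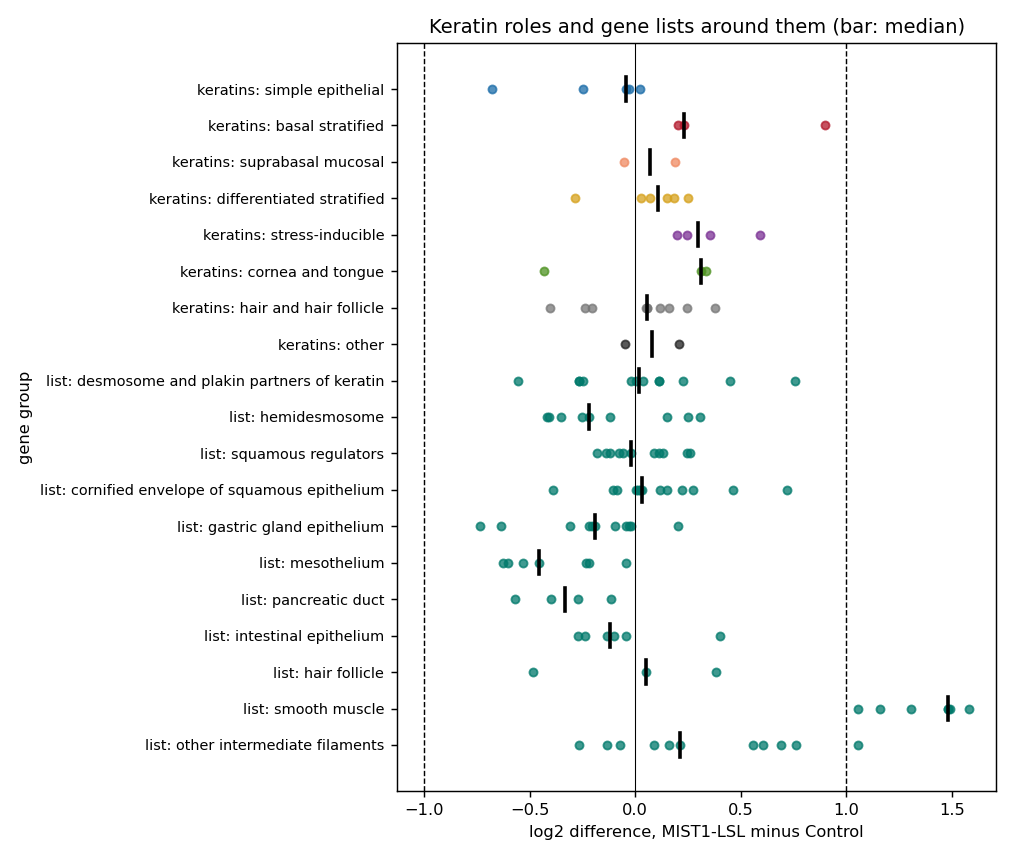
Log2 difference, MIST1-LSL minus Control (x axis), of each gene above the floor, by keratin role and by gene list (rows), with black bars at medians and dashed lines at 2-fold; the acinar list is not drawn. Basal and stress-inducible keratins lie right of 0, mesothelium and pancreatic duct genes left of it, and smooth muscle genes right of the 2-fold line.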

How the data were processed

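Total RNA of 1 MIST1-LSL and 1 Control stomach was amplified, biotin-labelled and hybridised, per the labels' protocols. The deposited values are log2 levels per probe set, made with RMA and Partek per the submitters' processing notes. Tool versions, settings and the genome build were not given in the sources used here. A workbook of the authors also holds the same levels as linear intensity and a deposited ratio of the intensities, which was not used. The workbook's enrichment sheets were not used.

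The probe set with the highest mean stood for a gene, and 26 symbols that the spreadsheet had turned into numbers were replaced from the assignment column. The floor was the median of all values and no rescaling was applied. As alternatives, values were rescaled by loess (span 0.3), by median centring or by quantile normalization, or taken from the series table, the floor was dropped or set at the 75th percentile, and other probe set rules, a minimum of 10 probes, and 1.5-fold and 3-fold size rules were tried. Every keratin above the floor was named, as were keratins below it that differed by at least 0.5. The rule also named up to 4 genes of each other list by size, and genes at 2-fold. Dsg2, Dsg3, Pkp1, Pkp2, Pkp3, Ppl, Evpl, Gkn1, Tff1, Cftr, Sprr1a, Krtdap, Atp4b, Vim, Lmna, Krt2, Krt9 and Krt76 were named outside that rule. So were keratin pseudogenes and the hair follicle genes below the floor. Summed intensities count genes above the floor. The members and the 12 lists were chosen with earlier results of these data known. One duct list gene is not reported here. The procedure was tested on simulated data. Python 3.11.15, numpy 2.4.6, pandas 2.3.3, statsmodels 0.14.6 and matplotlib 3.10.9 were used.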

Additional observations from a re-analysis of the deposited data

Results flagged for a closer look

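A keratin pseudogene outside the family rule gave a signal above the Control array. Gm5476, annotated as a type II keratin pseudogene and measured by 9 probes, read 5.36 in MIST1-LSL and 4.20 in Control, a log2 difference of 1.16, with the Control level below the floor. Of the other keratin pseudogenes, Gm6042 differed by 0.48 (5.01 in MIST1-LSL, 4.54 in Control) and Gm5477 by -0.04 below the floor on both arrays. Pseudogenes resemble their parent genes, so the transcript behind each signal is uncertain.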

How the results depend on the processing

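No paired analysis was possible because each genotype has 1 array and no replicate number in its labels. The number of keratins past 2-fold was 0 by the settings reported and 1 with no floor (Krt71), and 3 keratins passed a 1.5-fold rule (Krt15, Krt16 and Krt20); it stayed at 0 under the other alternatives. Over all genes, 250 passed 2-fold, 556 with no floor, 1180 at 1.5-fold and 91 at 3-fold. The median difference of the keratins ran from 0.07 to 0.16 and that of the stratified keratins from 0.19 to 0.23 over the alternatives, and no keratin above the floor moved by as much as the SD between probe sets. The single array per genotype leaves variation between mice unmeasured; levels near the floor of 4.62 have no shown signal over background, and a floor at the 75th percentile (5.84) kept 19 keratins.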

Other observations

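Intermediate filament genes outside the keratin family were also measured. Of all 13 on the list 9 were higher in MIST1-LSL, with a median log2 difference of 0.19. Without a floor, 45.9% of all genes were higher. Of these 13, 11 reached the floor, among them Prph, Nefl and Ina only through the MIST1-LSL array, so their higher level there is partly a matter of selection. Desmin was the 1 gene of the list above the floor that was at least 2-fold higher, beside 0.968% of all genes above the floor. Desmin (Des), of muscle, read 7.23 in MIST1-LSL and 6.17 in Control, a difference of 1.06. Peripherin (Prph), of peripheral neurons, read 5.33 in MIST1-LSL and 4.57 in Control, a difference of 0.76 against a Control level below the floor. The neuronal filament gene Ina differed by 0.69, also with Control below the floor, and synemin (Synm), of muscle, by 0.61. Vimentin (Vim), of mesenchymal cells, read 6.85 in MIST1-LSL and 6.76 in Control, a difference of 0.09, and the nuclear lamin gene Lmna differed by 0.16. The smooth muscle list that is higher on the same array shares desmin with these genes.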
